A study of Homo sapiens with 6 samples.

Results

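The 10 genes described here are transcriptional readouts and feedback inhibitors of the kinase ERK: the phosphatase genes DUSP4, DUSP5 and DUSP6, the Sprouty genes SPRY1, SPRY2 and SPRY4, the Sprouty-related genes SPRED1 and SPRED2, and the transcription factor genes ETV4 and ETV5. They were taken by gene symbol from a deposited expression table of 60664 genes, in which each symbol was found once. All 10 passed the filter for testing, an average over the libraries of 1 TPM or more, as did 14286 genes in all. TPM is an abundance that is corrected for gene length and adds up to the same total in each library.

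67R is an ASK120067-resistant line of NCI-H1975, a human lung adenocarcinoma line with mutant EGFR, and was obtained by exposing the parental cells to rising doses of this EGFR inhibitor. RNA-seq was made from 3 libraries of 67R cells given a negative control siRNA (siNC) and from 3 libraries of 67R cells given siRNA against BCAT1 (siBCAT1). BCAT1 encodes the cytosolic branched-chain amino acid transaminase, and the comparison asks what its knockdown does to the transcriptome of the resistant cells. Both groups were transfected, and the labels name no drug in the medium for either. The labels give no siRNA sequence, and the methods of the study use the name siBCAT1 for the siRNA also called siBCAT1-2. All 3 knockdown libraries carry this name, so other effects of the siRNA cannot be told apart from loss of BCAT1. The labels do not say whether the 3 libraries of a group came from separate cultures, so the p-values measure the spread between these libraries, which may be technical.

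ERK is the last kinase of a cascade in which growth factor receptors activate RAS, RAF and MEK in turn. Active ERK induces genes that switch the cascade off again, so that transcripts of the DUSP, SPRY and SPRED families and of ETV4 and ETV5 are widely read as a record of ERK output. DUSP proteins remove the activating phosphates from MAP kinases, Sprouty and SPRED proteins act upstream on the steps from receptor to RAF, and ETV4 and ETV5 are ETS-family activators. In lung adenocarcinoma with mutant EGFR the cascade runs downstream of the mutant receptor.

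The targeted gene was lower in every siBCAT1 library. BCAT1 averaged 38.2 ± 7.33 TPM in control and 7.96 ± 0.841 TPM in knockdown cells (SD, n = 3 each). The epithelial keratin genes KRT7, KRT8, KRT18 and KRT19 were well expressed, whereas EPCAM stayed between 0.91 and 2.61 TPM. Among markers of other cell types, CD3E, DCN and LUM were listed at 0 in all 6 libraries and PTPRC was above 0 in 1 library only, at 0.33 TPM. Other fibroblast markers were expressed, with COL1A2 at 177.54 to 249.48 TPM, COL1A1 at 8.74 to 17.66 TPM and PDGFRB at 2.13 to 6.49 TPM. The leukocyte marker CD68 was at 29.1 to 59.95 TPM. Depth is not recorded in TPM, but weakly expressed genes 900 to 1100 bases long showed a regular spacing of values, whose width gave the shallowest library a relative depth of 0.812 of the deepest.

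Across all genes tested, 27.1% differed at an adjusted p under 0.05 by limma's moderated test on log2(TPM + 1) with Benjamini-Hochberg adjustment: 16.7% were higher and 10.4% lower in siBCAT1 cells. Of the 10 feedback genes, 3 fell (DUSP4, DUSP5 and SPRY1), 0 rose and 7 did not pass the threshold. The 3 called genes are a share close to the 27.1% of all genes, and all 3 were lower, the direction of 10.4% of all genes. At an unadjusted p under 0.05 from limma, 4 of the 10 were lower, against 15.9% of all genes tested, and 1 was higher, against 23.8%. The groups did not overlap for 6 of the 10, against 44.1% of all genes tested. The median log2 fold change of the 10 genes was -0.24, beside 0.04 for all genes tested. Among the 14286 genes ordered from the lowest log2 fold change, DUSP5 stood at place 551, DUSP4 at 601 and SPRY1 at 689, while ETV4 stood at 10610. Differences on this scale understate the change of weakly expressed genes such as DUSP6 and SPRY1. The balance of directions across all genes tested depended on the scaling of the libraries. As reported, 2382 genes were called higher and 1483 lower. When the libraries were rescaled by median ratios, 1957 were called higher and 1802 lower. After quantile normalization these counts were 2042 and 1865. Under each of these rescalings 4 of the 10 feedback genes were called lower and 0 higher.

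**Figure D1:**
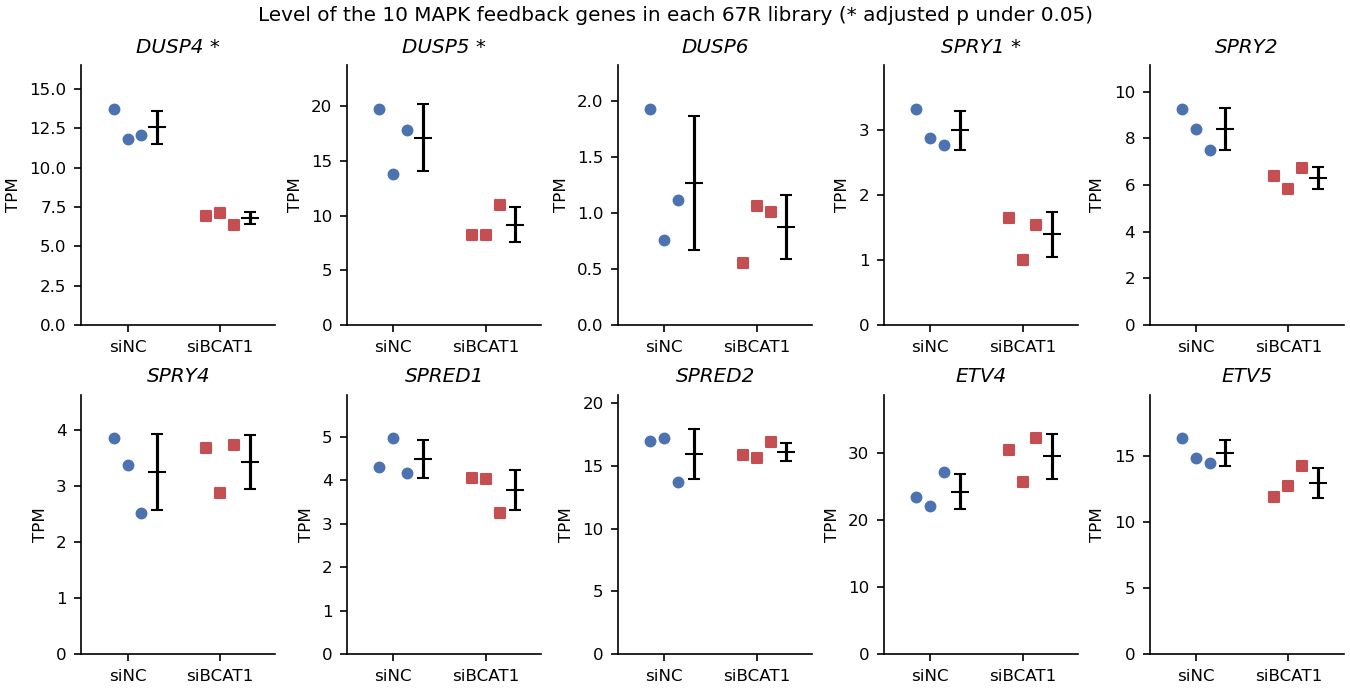
Level of each of the 10 genes in TPM (vertical axis, from 0) in the 3 siNC libraries (circles) and the 3 siBCAT1 libraries (squares), with the mean and SD of each group as a bar; an asterisk marks an adjusted p under 0.05. The groups stand apart for DUSP4, DUSP5, SPRY1, SPRY2, SPRED1 and ETV5, all lower in siBCAT1, and overlap for DUSP6, SPRY4, SPRED2 and ETV4.

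The phosphatase genes held the clearest falls. DUSP4 (ENSG00000120875, chromosome 8, 29333064 to 29350668 on the minus strand of GRCh38) encodes a nuclear phosphatase of ERK and other MAP kinases. It was at 13.76, 11.85 and 12.08 TPM across siNC replicates 1 to 3 and 6.93, 7.10 and 6.34 TPM across siBCAT1 replicates 1 to 3. Every siBCAT1 library lay well under the lowest siNC library, and the spread within each group was narrow. The log2 fold change was -0.80 ± 0.10 (SE; limma, adjusted p = 0.00204), and it stayed past the threshold under each of the 12 alternatives run.

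DUSP5 (ENSG00000138166, chromosome 10, 110497838 to 110511544, plus strand) encodes a nuclear phosphatase that acts on ERK. Its level was 19.80, 13.79 and 17.84 TPM across siNC replicates 1 to 3 and 8.27, 8.19 and 10.99 TPM across siBCAT1 replicates 1 to 3. The groups did not overlap, although the siNC libraries were more scattered than for DUSP4. The mean fell by 46.6%, with a log2 fold change of -0.83 ± 0.16 (SE; limma, adjusted p = 0.0100). This call was narrowly lost with fewer libraries. The adjusted p from limma was 0.0519 without siNC replicate 1 and 0.0502 without siNC replicate 3 or without siBCAT1 replicate 1. The annotated pseudogene DUSP5P1, a copy of DUSP5 with which reads may be shared, also fell, from between 4.82 and 5.76 TPM to between 2.48 and 3.13 TPM (log2 fold change -0.70, adjusted p = 0.0101 from limma), so the value of DUSP5 is uncertain to that extent.

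DUSP6 (ENSG00000139318, chromosome 12, 89347232 to 89353271, minus strand) encodes the cytoplasmic ERK phosphatase and is among the most used readouts of ERK activity. It was the weakest of the 10 genes, at 1.93, 0.76 and 1.11 TPM across siNC replicates 1 to 3 and 0.55, 1.06 and 1.01 TPM across siBCAT1 replicates 1 to 3. These ranges overlapped, and siNC replicate 1 stood above the other 5 libraries. Its log2 fold change of -0.25 had a 95% interval from -0.88 to 0.37 (adjusted p = 0.521 from limma), and the estimate was -0.05 without siNC replicate 1. The tested genes whose centred profile over the 6 libraries lay nearest to that of DUSP6 were TNFRSF25, ALG1L13P, ENSG00000256664, CNOT11 and ENSG00000213970. Their root mean square differences from it were between 0.0847 and 0.110 on the log2 scale. None of them was called, which largely follows from their choice by likeness to an uncalled gene.

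The Sprouty genes encode inhibitors that act between receptor tyrosine kinases and RAF. SPRY1 (ENSG00000164056, chromosome 4, 123396795 to 123403760, plus strand) was at 3.33, 2.88 and 2.77 TPM across siNC replicates 1 to 3 and 1.65, 1.00 and 1.53 TPM across siBCAT1 replicates 1 to 3. All siBCAT1 libraries were under all siNC libraries, and the mean fell by 53.5%, the largest relative fall among the 10 genes. The log2 fold change was -0.75 ± 0.18 (SE; limma, adjusted p = 0.0226). The call was lost without siNC replicate 1 (adjusted p = 0.0600 from limma), without siBCAT1 replicate 2 (0.0506) and with no filter on low values (0.0777).

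SPRY2 (ENSG00000136158, chromosome 13, 80335976 to 80340951, minus strand) showed a smaller difference in the same direction. It was at 9.28, 8.42 and 7.51 TPM across siNC replicates 1 to 3 and 6.38, 5.82 and 6.75 TPM across siBCAT1 replicates 1 to 3. No siBCAT1 library reached the siNC range, but the adjusted p from limma was 0.0573 at a log2 fold change of -0.36 ± 0.12 (SE). It was called lower when the libraries were rescaled by median ratios (adjusted p = 0.0299 from limma) or by quantile normalization (0.0379).

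SPRY4 (ENSG00000187678, chromosome 5, 142310427 to 142326455, minus strand) showed no fall in its estimate, unlike the other Sprouty genes. Its 3.86, 3.37 and 2.51 TPM in siNC replicates 1, 2 and 3 overlapped fully with the 3.68, 2.87 and 3.73 TPM in siBCAT1 replicates 1, 2 and 3. On the log2 scale the difference was 0.07, with a 95% interval from -0.34 to 0.48 (adjusted p = 0.811 from limma), and its sign turned without siNC replicate 3. The interval of SPRY1, a gene of similar level in siNC cells, ran from -1.17 to -0.32 and overlapped with that of SPRY4 at its edge. SPRY1 and SPRY4 were not tested against each other.

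Letters that ERK-regulated transcription factors are known to read were looked up in the RefSeq promoter windows (GRCh38.p14, 250 bases before to 50 after a start site), which held 10 windows for 6 of the 10 genes. Genes without a window were not searched, so nothing is said of their motifs. The motifs were the ETS core CGGAAG, the octamers of the repressor Capicua (TGAATGAA, TGAATGGA, TCAATGAA and TCAATGGA), the AP-1 word TGACTCA, the cAMP response element TGACGTCA and the CArG box of serum response factor, each on both strands and none overlapping another in these windows. The ETS core occurred in 3 of the 10 windows, 1 each of SPRY1, DUSP6 and SPRED2, and in 19.5% of all 35116 windows. A Capicua octamer occurred in 1 of the 10 windows, of DUSP6, and in 3.77% of all windows. AP-1 was found in a window of SPRED2 (4.95% of all windows), and the cAMP response element (1.85%) and the CArG box (1.29%) in none of the windows of these genes. The matches in SPRY1, which fell, and in DUSP6, which was not called, are shown because they set a called and an uncalled gene side by side. Those in SPRED2, which was also not called, are not printed. The start sites are those of RefSeq, and the stretches shown lie inside the gene spans given above. The sequences run 5′ to 3′ on the strand of the gene, with the motif in capitals; in DUSP6 the capitals are the reverse complements of CGGAAG and TCAATGGA.
SPRY1 ETS core, chr4:123398309-123398336: ccctccgcagcCGGAAGggggccgcggg
DUSP6 ETS core, chr12:89352547-89352574: ggcaacagcccCTTCCGcagcacgctca
DUSP6 Capicua octamer upstream of the start, chr12:89352507-89352536: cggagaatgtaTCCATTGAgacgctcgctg
DUSP6 Capicua octamer at the start, chr12:89352482-89352511: cgctgtttgtaTCCATTGAggagctgcctc
Both DUSP6 octamers are the same word on the same strand and are preceded by the same letters gta. A match describes the letters of the window and not the binding of a factor in these cells.

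SPRED proteins carry neurofibromin, an inactivator of RAS, to the membrane, and neither SPRED gene passed the threshold. SPRED1 (ENSG00000166068, chromosome 15, 38252326 to 38357249, plus strand) was at 4.31, 4.98 and 4.17 TPM across siNC replicates 1 to 3 and 4.05, 4.02 and 3.24 TPM across siBCAT1 replicates 1 to 3. These groups did not overlap but lay close together, 4.17 against 4.05 TPM at their nearest. This gave a log2 fold change of -0.20, with a 95% interval from -0.53 to 0.12 (adjusted p = 0.316 from limma).

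SPRED2 (ENSG00000198369, chromosome 2, 65310851 to 65432637, minus strand) had 17.00, 17.26 and 13.71 TPM in siNC replicates 1, 2 and 3 and 15.86, 15.61 and 16.91 TPM in siBCAT1 replicates 1, 2 and 3. The siBCAT1 values fell within the siNC range. The difference on the log2 scale was 0.02, with a 95% interval from -0.23 to 0.27 (adjusted p = 0.922 from limma), and its sign depended on the scaling of the libraries.

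ETV4 and ETV5, paralogs of the PEA3 group of ETS factors, had estimates of opposite sign. ETV4 (ENSG00000175832, chromosome 17, 43527844 to 43579620, minus strand) was at 23.47, 22.04 and 27.10 TPM across siNC replicates 1 to 3 and 30.48, 25.70 and 32.25 TPM across siBCAT1 replicates 1 to 3. The groups overlapped, since siNC replicate 3 lay above siBCAT1 replicate 2. The log2 fold change of 0.27 ± 0.11 (SE) had an adjusted p of 0.122 from limma. ETV4 overlaps DHX8 on the opposite strand, and whether the counting used strand is not given in the sources used here.

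ETV5 (ENSG00000244405, chromosome 3, 186046308 to 186110318, minus strand) was at 16.37, 14.85 and 14.44 TPM across siNC replicates 1 to 3 and 11.91, 12.74 and 14.21 TPM across siBCAT1 replicates 1 to 3. All siBCAT1 libraries were lower, with replicate 3 just under the lowest siNC library. The log2 fold change was -0.22 ± 0.10 (SE; limma, adjusted p = 0.147). ETV5 overlaps DGKG on the same strand, which rose from between 0.47 and 0.61 TPM to between 1.89 and 3.09 TPM, and reads in the shared stretch may be split either way.

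**Figure D2:**
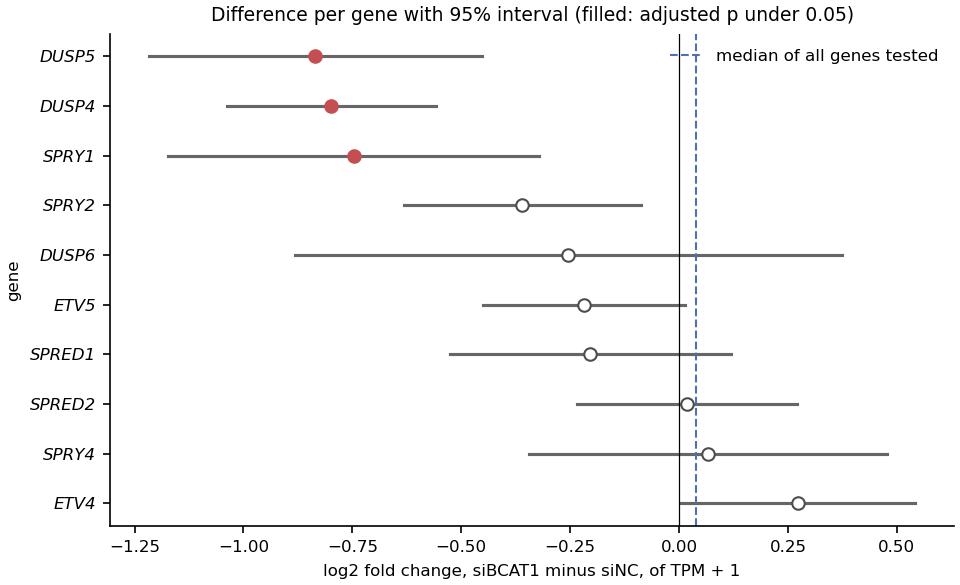
Log2 fold change of TPM + 1, siBCAT1 minus siNC (horizontal axis), for each gene (vertical axis), with its 95% interval from limma; filled points have an adjusted p under 0.05 and the dashed line is the median of all genes tested, 0.04. DUSP5, DUSP4 and SPRY1 lie between -0.83 and -0.75, the other 7 between -0.36 and 0.27.

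The order of the 10 genes by level shifted between the groups. In siNC cells ETV4 led with a mean of 24.2 TPM, followed by DUSP5 (17.1), SPRED2 (16.0) and ETV5 (15.2), of which DUSP5 and SPRED2, and SPRED2 and ETV5, overlapped in their ranges. DUSP4 (12.6 TPM), SPRY2 (8.40) and SPRED1 (4.49) came next and did not overlap with their neighbours. SPRY4 (3.25 TPM) and SPRY1 (2.99) overlapped, and DUSP6 (1.27) was last. In siBCAT1 cells ETV4 again led, at 29.5 TPM, DUSP5 stood at 9.15 TPM, under SPRED2 and ETV5, and the range of DUSP4 (6.79 TPM) overlapped with that of SPRY2 (6.32 TPM). The range of SPRY1 (1.39 TPM) then overlapped with that of DUSP6 (0.873 TPM). Summed over the 3 phosphatase genes, the level went from 31.0 ± 4.55 TPM to 16.8 ± 1.36 TPM (SD, n = 3 each), whereas the 2 ETV genes summed to 39.4 ± 2.35 TPM and 42.4 ± 4.01 TPM (SD, n = 3 each).

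Ratios between related genes within a library, chosen after the values were seen, do not depend on the scaling of the libraries. The ratio of ETV4 to ETV5 was 1.43, 1.48 and 1.88 in siNC replicates 1, 2 and 3 and 2.56, 2.02 and 2.27 in siBCAT1 replicates 1, 2 and 3. The ratio of SPRY1 to SPRY2 was 0.357 ± 0.0135 in siNC and 0.219 ± 0.0439 in siBCAT1 cells, and that of SPRY2 to SPRY4 was 2.63 ± 0.316 and 1.86 ± 0.153 (SD, n = 3 each). The groups did not overlap for these 3 ratios, each with a two-sided exact permutation p of 0.1, the smallest that 3 libraries against 3 can give (0.133 with Benjamini-Hochberg adjustment over the 4 ratios computed), so that no ratio could pass a threshold of 0.05. The ratio of DUSP5 to DUSP4 was 1.36 ± 0.171 in siNC and 1.36 ± 0.324 in siBCAT1 cells (SD, n = 3 each, two-sided exact permutation p = 0.9).

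**Figure D3:**
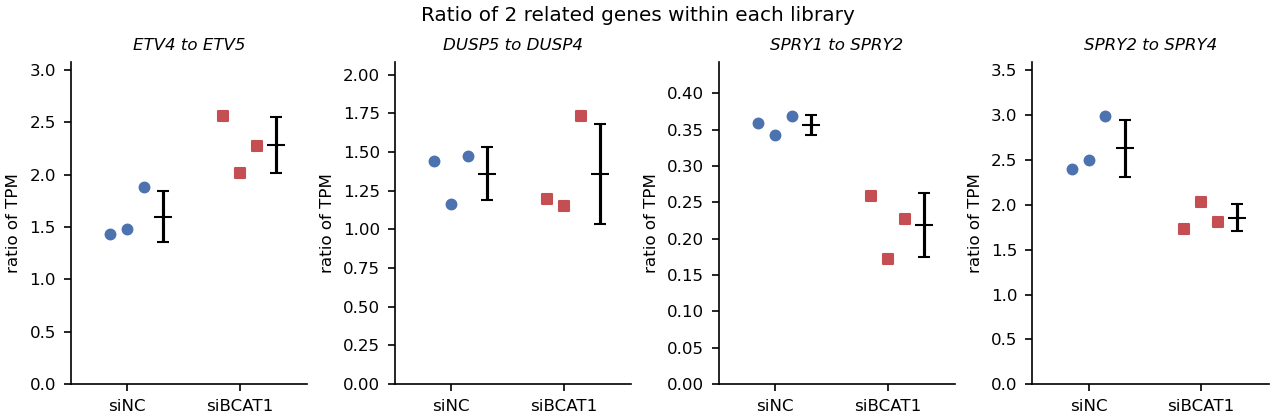
Ratio of the TPM of the first-named to the second-named gene (vertical axis, from 0) in each of the 3 siNC (circles) and 3 siBCAT1 (squares) libraries, with mean and SD as a bar. The groups stand apart for ETV4 to ETV5, SPRY1 to SPRY2 and SPRY2 to SPRY4 and overlap for DUSP5 to DUSP4.

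Among the remaining members of the same families, 2 of the 7 other MAPK phosphatase genes fell, 0 rose (0 also at an unadjusted p under 0.05 from limma) and 5 were not called. Across all genes tested, 10.4% were called lower and 16.7% higher. DUSP10, which encodes a phosphatase of JNK and p38, went from 12.33, 11.25 and 15.69 TPM in siNC replicates 1, 2 and 3 to 5.96, 5.44 and 7.06 TPM in siBCAT1 replicates 1, 2 and 3, a log2 fold change of -0.97 (adjusted p = 0.00385 from limma). DUSP9, which encodes a cytoplasmic ERK phosphatase, went from 10.92, 10.28 and 11.43 TPM to 6.43, 5.61 and 6.49 TPM in the same order, a log2 fold change of -0.73 (adjusted p = 0.00287 from limma). For both, all siBCAT1 libraries were under all siNC libraries, where 44.1% of all genes tested showed no overlap in either direction. The median of the 7 genes was -0.12. SPRY3 was listed at 0 in all libraries, and ETV1 and SPRED3 were not called.

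Of 11 other genes known to be induced by ERK, 6 fell, 1 rose and 4 were not called, with a median log2 fold change of -0.30. These counts stand beside 10.4% lower and 16.7% higher among all genes tested. CCND1, which encodes cyclin D1, fell from 243.88, 277.62 and 206.77 TPM in siNC replicates 1, 2 and 3 to 111.25, 112.13 and 97.07 TPM in siBCAT1 replicates 1, 2 and 3 (log2 fold change -1.17, adjusted p = 0.000745 from limma). The cytokine gene LIF fell from between 71.98 and 100.31 TPM to between 40.56 and 42.70 TPM (log2 fold change -1.03, adjusted p = 0.00127 from limma). The ephrin receptor gene EPHA4 (-0.68), the early response gene IER3 (-0.41), the AP-1 subunit gene FOSL1 (-0.35) and EPHA2 (-0.30), an ephrin receptor gene named after its value was seen, also fell, with log2 fold changes in parentheses and adjusted p between 0.0220 and 0.0336 from limma. MYC went the other way, from between 513.88 and 570.25 TPM to between 636.76 and 838.82 TPM (log2 fold change 0.43, adjusted p = 0.0209 from limma).

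Of the 3 genes of the Capicua repressor, which holds ETV4, ETV5 and other feedback genes down until ERK releases it, 2 fell, 0 rose (0 also at an unadjusted p under 0.05 from limma) and 1 was not called. The shares among all genes tested were 10.4% lower and 16.7% higher. CIC, the repressor itself, was at 15.66, 12.21 and 18.87 TPM across siNC replicates 1 to 3 and 11.27, 9.94 and 9.70 TPM across siBCAT1 replicates 1 to 3 (log2 fold change -0.54, adjusted p = 0.0410 from limma). Its partner ATXN1 was between 10.84 and 11.86 TPM in siNC and between 7.89 and 8.69 TPM in siBCAT1 cells (log2 fold change -0.43, adjusted p = 0.0143 from limma). The groups did not overlap for either gene, as for 44.1% of all genes tested in either direction. ATXN1L, the gene not called, had a log2 fold change of 0.15 (adjusted p = 0.519 from limma), and its groups overlapped.

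The transcripts of the cascade itself did not move one way. Of 26 genes from the receptor adaptors to ERK and its kinases RSK, 1 rose, 3 fell and 22 were not called, with a median log2 fold change of -0.01. For all genes tested the shares were 16.7% higher and 10.4% lower. PTPN11, which encodes the phosphatase SHP2 that helps to activate RAS, rose from 24.41, 29.49 and 21.43 TPM in siNC replicates 1, 2 and 3 to 59.66, 56.54 and 52.97 TPM in siBCAT1 replicates 1, 2 and 3 (log2 fold change 1.15, adjusted p = 0.000967 from limma). The scaffold gene KSR1 (-0.86), the adaptor gene FRS2 (-0.74) and the adaptor gene SHC1 (-0.53) fell, with log2 fold changes in parentheses and adjusted p between 0.0157 and 0.0366 from limma. Over these 5 lists together 15 of 49 tested genes were called, against 27.1% of all genes. The count was 5 without siNC replicate 1, 14 without siNC replicate 2 and 10 without siNC replicate 3. It was 7 without siBCAT1 replicate 1 or 3, and 8 without siBCAT1 replicate 2. Calls across all genes tested also dropped, from 3865 to 2318, 3706 and 2503 without siNC replicates 1, 2 and 3. They were 2411, 2444 and 2501 without siBCAT1 replicates 1, 2 and 3. Of the 15 pathway genes called, DUSP9, DUSP10, CCND1, LIF and PTPN11 stayed called under every alternative run. Each of the other 10 lost its call without siNC replicate 1 and in at least 3 further alternatives.

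The falls were found in libraries that differed in other respects as well. The summed level of the 6 epithelial markers was between 2546 and 2948 TPM in siNC and between 1647 and 1935 TPM in siBCAT1 libraries. EPCAM went the other way without being called, from between 0.91 and 1.55 TPM to between 1.96 and 2.61 TPM (log2 fold change 0.56, adjusted p = 0.0732 from limma). The other 5 of the 6 were called lower. The largest of these falls was that of CDH1, which encodes E-cadherin and adds little to the sum: it went from 17.84, 12.46 and 28.83 TPM in siNC replicates 1, 2 and 3 to 4.30, 0.85 and 4.16 TPM in siBCAT1 replicates 1, 2 and 3 (log2 fold change -2.41, adjusted p = 0.00881 from limma). The 6 fibroblast markers summed to between 253 and 274 TPM in siNC and between 189 and 245 TPM in siBCAT1 libraries, nearly all of it COL1A2, with DCN and LUM at 0. Of the 3 fibroblast markers tested, both PDGFRB and COL1A1 fell, by log2 fold changes of -0.86 and -0.68 (adjusted p = 0.0110 and 0.0197 from limma), and COL1A2 was not called. The 5 leukocyte markers summed to between 30.3 and 39.4 TPM and between 53.7 and 60.8 TPM, nearly all of it CD68, with CD3E at 0, and the 3 endothelial markers to at most 2.61 TPM. The part of these differences in the result was not tested. Leaving out siNC replicate 1 left DUSP4 as the 1 gene of the 10 that was called lower. Across all genes tested, 796 were called lower without that library, against 1483 with all libraries.

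**Figure D4:**
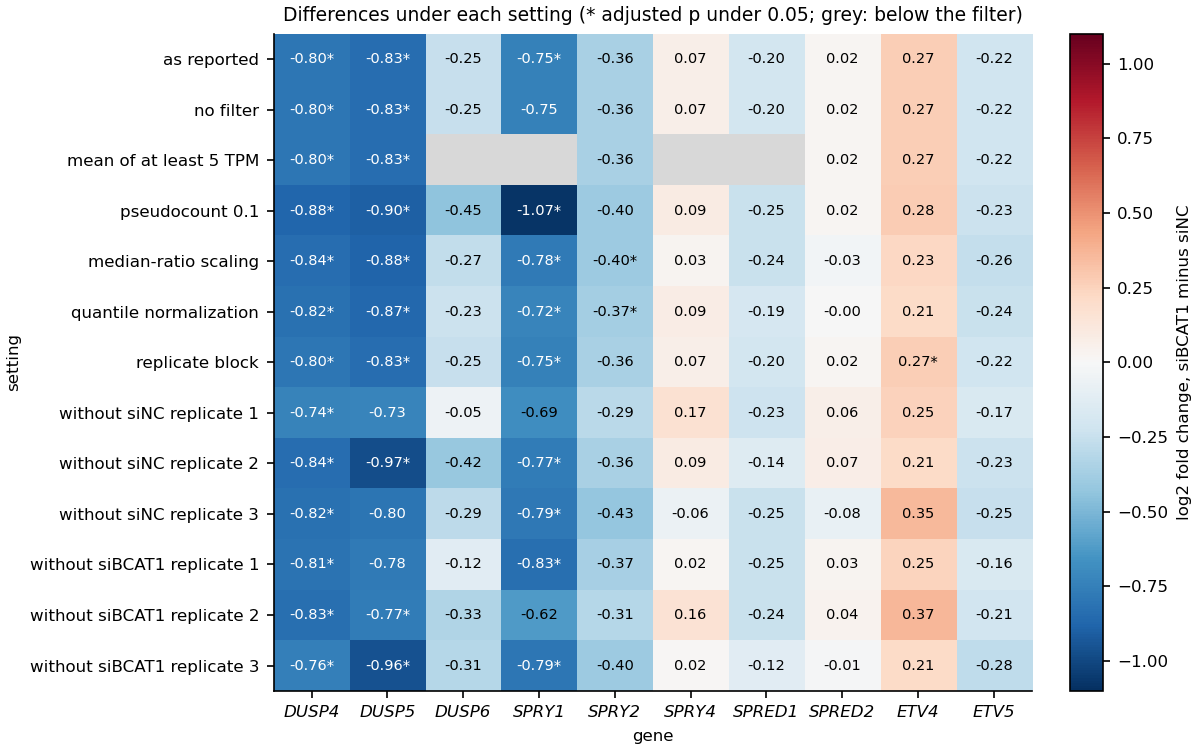
Log2 fold change, siBCAT1 minus siNC (number and colour), of each gene (horizontal axis) under the reported setting and each of the 12 alternatives (vertical axis); an asterisk marks an adjusted p under 0.05 and grey a gene below the filter. DUSP4 is called in every setting, DUSP5 and SPRY1 in most, and the signs of SPRY4 and SPRED2 change between settings.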

How the data were processed

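Poly(A) RNA of 67R cells was sequenced from stranded libraries, 3 for siNC and 3 for siBCAT1, and grouped by the titles in the labels. The authors deposited TPM values per gene, rounded to 2 decimals, with a gene length; per the labels' processing notes they used fastp, HISAT2 and StringTie on GRCh38, with versions, annotation and strand setting not given in the sources used here. The unit was read from the values, which sum to between 992512 and 995593 per library. TPM holds no total depth, so precision rests on the replicates; the steps of low values give relative depth only.

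The moderated test of limma 3.58.1 (R 4.3.3, trend option) was run on log2(TPM + 1) for 14286 genes that averaged 1 TPM or more, two-sided, with Benjamini-Hochberg adjustment over all of them and a threshold of 0.05; the script was first tested on simulated data. Single ratios had an exact permutation test (scipy 1.17.1). Named genes were the 10 genes, BCAT1, the called genes of 5 pathway lists (at most 6 per list, with EPHA2 added), and the 5 genes nearest to DUSP6 in profile. Markers of cell types, uncalled genes of the pathway lists and genes that overlap or copy one of the 10 were named outside this rule, after their values were seen. Genes and lists were chosen with earlier results of these data known. Positions are from GENCODE 29 on GRCh38. The alternatives were no filter, an average of 5 TPM or more, 0.1 as pseudocount, median-ratio scaling, quantile normalization, the replicate number as a block, and each library left out.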

Additional observations from a re-analysis of the deposited data

How the results depend on the processing

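BCAT1, DUSP4, DUSP6, SPRED1 and ETV5 kept their direction and their side of the threshold under all alternatives that could be run. Requiring an average of 5 TPM left DUSP6, SPRY1, SPRY4 and SPRED1 untested. The count of feedback genes called lower was between 1 and 3 with a library left out, and 2 to 4 otherwise. The log2 fold change of SPRED2 was -0.028 under median-ratio scaling, -0.0044 under quantile normalization and between -0.083 and 0.073 with a library left out; that of SPRY4 was then between -0.064 and 0.17. The cause was not tested. With no filter 2567 of all genes and 6 of the pathway genes were called, where 31860 genes were tested; with a library left out the counts were 2318 to 3706 and 5 to 14, from fewer samples. With the replicate block, ETV4 was called higher (adjusted p = 0.0342 from limma), so that 1 feedback gene rose, and 4568 of all genes and 20 pathway genes were called. The numbers were not taken to pair the libraries, since deviations of same-numbered libraries correlated at 0.084, 0.102 and 0.124, although each correlated best with its own number. No counts were held, so counting error per value could not be given.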
